A study of Homo sapiens with 6 samples.

Results

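The mRNAs of 54 genes of the nuclear pore and of nuclear transport were compared between RNA recovered on the GST-Ferry complex and RNA recovered on GST alone. The genes were chosen by name, as 27 nucleoporins (the building blocks of the pore, with the mRNA export factor RAE1) and 27 transport receptors and regulators of the GTPase RAN. Each name matched 1 of the 60676 Ensembl gene IDs in the deposited table, and all 54 genes were among the 15546 genes with enough counts to be tested. The study asked which RNAs associate with FERRY, a complex of 5 proteins that binds the early endosomal GTPase RAB5. RNA pulled down with the FERRY complex fused to glutathione S-transferase (GST-Ferry, 3 libraries) was set against RNA pulled down with glutathione S-transferase by itself (GST, 3 libraries), the control for binding to the tag and the resin. The labels do not say whether the 3 libraries of a bait come from separate cultures, so p-values measure the spread between these libraries, which may be technical. Both baits sat on glutathione resin and met the same kind of cell extract, from HEK 293, a human embryonic kidney cell line that here grew in suspension, and no genotype or drug differed between them. The bait complex was added to a cell lysate, so the data hold RNA that met the complex after the cells were broken.

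Nuclear pores are the channels through the nuclear envelope. A scaffold of Y-shaped complexes and an inner ring is anchored in the membrane, and nucleoporins rich in phenylalanine-glycine (FG) repeats fill the channel, with filaments on the cytoplasmic side and a basket on the nuclear side. Large proteins pass with receptors: importin alpha adaptors and importin beta family receptors carry cargo in, and exportins carry it out. RAN gives the direction, because its GTP-bound form is made in the nucleus by the exchange factor RCC1 and is hydrolysed in the cytoplasm with the help of RANGAP1 and RANBP1. mRNAs of these genes are made in nearly every cell and are translated in the cytosol.

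Library totals were 6532665, 2671831 and 2454538 counts for GST-Ferry 1, 2 and 3, and 9388865, 10466520 and 7390346 counts for GST 1, 2 and 3, of which the 54 genes took 29580 to 79763 counts with GST-Ferry and 96739 to 124120 with GST. Values are CPM (counts scaled to a common library total with TMM factors), and a floor of 3 counts corresponds to 0.287 to 1.22 CPM, which covers counting error only. A CPM value is a share of its library, so more of 1 RNA on the resin and less of the others cannot be told apart. Of the mRNAs of the 5 bait subunits, PPP1R21, C12orf4 and TBCK rose with GST-Ferry (log2 fold changes 8.83, 6.73 and 5.30; adjusted p = 0.0110 for each by edgeR's quasi-likelihood test), while CRYZL1 (-0.50, adjusted p = 0.248) and GATD1 (0.12, adjusted p = 0.808) did not pass. PPP1R21, the highest, had 794, 18210 and 37450 CPM in GST-Ferry 1, 2 and 3, against 39.2, 44.5 and 40.6 CPM in GST 1, 2 and 3. All 6 HEK 293 markers (VIM, KRT8, KRT18, NEFM, LHX1 and PAX2) had counts in every library and summed to 1210 to 1725 CPM with GST-Ferry and 767 to 942 CPM with GST. VIM made up most of these sums (949 to 1343 CPM with GST-Ferry and 587 to 796 CPM with GST). KRT18 was called higher with GST-Ferry (log2 fold change 1.18, adjusted p = 0.0427 by edgeR's quasi-likelihood test). KRT8 (log2 fold change 1.05) and the other markers of this list did not pass. The 10 markers of blood, liver, muscle and glia summed to 2.17 to 6.73 CPM with GST-Ferry and 4.08 to 7.62 CPM with GST, with CD3E, HBB and MYH2 at 0 in every library; the part of either list in the results was not tested. GST 3 stood apart from GST 1 and GST 2 (chi-square per degree of freedom 50.3 and 47.0, against 10.9 between GST 1 and GST 2). GST-Ferry 1 differed from GST-Ferry 2 and GST-Ferry 3 by 15.5 and 23.2, against 4.43 between GST-Ferry 2 and GST-Ferry 3. This measure includes the mRNAs of the bait subunits and grows with read depth. The PPP1R21 level of GST-Ferry 1, the lowest of its group, is therefore part of it. Over all tested genes GST-Ferry 1 was the highest library for 9.79% and the lowest for 8.38%. These shares were 17.1% and 18.4% for GST-Ferry 2, and 17.7% and 18.4% for GST-Ferry 3.

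No gene of the 54 passed the test between the baits, and the differences were about as large as over all tested genes. With p-values of edgeR's quasi-likelihood test adjusted after Benjamini-Hochberg over all genes, 0 of 54 were called at an adjusted p under 0.05, against 97 of 15546 tested genes (0.624%; 0.592% higher and 0.0322% lower with GST-Ferry). At so low a share, 0 of 54 does not set these genes apart. The smallest adjusted p was 0.0755, for RAE1. Log2 fold changes of GST-Ferry over GST ran from -0.64 (NUP35) to 0.80 (RAE1), none reached 2-fold in either direction against 3.68% of all tested genes, and the median was 0.14 against -0.03 for all tested genes and 0.02 for protein-coding ones. Of the 54, 31 lay above 0 (57.4%, against 47.8% of all tested genes and 52% of protein-coding ones). Together they took 1.25% ± 0.0694 of counts with GST-Ferry and 1.24% ± 0.0638 with GST (mean ± SD, n = 3 each). These shares, and those by class below, are of all counts, which include the mRNAs of the bait subunits. PPP1R21 alone had 5454, 45978 and 86498 counts in GST-Ferry 1, 2 and 3, against 405, 490 and 277 in GST 1, 2 and 3. The shares with GST-Ferry are therefore lowered unevenly.

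Without the adjustment 15 of the 54 (27.8%) had a p under 0.05 by edgeR's quasi-likelihood test, 12 higher and 3 lower with GST-Ferry. The share was 19.3% of all tested genes (11.3% higher and 8.05% lower) and 20.3% of protein-coding ones. This count varied with the library left out, and so did the share of all tested genes. It was 5 of the 54 (9.26%) without GST-Ferry 2, against 10.4% of all tested genes, and 5 of the 54 without GST-Ferry 3, against 9.5%. Without GST-Ferry 1 it was 13 (24.1%, against 18.6%), and without GST 1 it was 16 (29.6%, against 20.7%). Without GST 2 it was 10 (18.5%, against 17.2%), and without GST 3 it was 17 (31.5%, against 25.2%). Without GST-Ferry 2, 27 of the 54 lay above 0 and the median was -0.01. In 19 of the 54 (35.2%) the GST-Ferry and GST libraries did not overlap, 14 with GST-Ferry above and 5 with GST-Ferry below. This held for 27.1% of all tested genes (14.9% above and 12.2% below) and 28.8% of protein-coding ones. DESeq2 called 3 of the 54, RAE1, RAN and SEC13, all higher with GST-Ferry, where 4.17% of the 12100 genes to which it gave an adjusted p were called higher. The standard errors of the 54 log2 fold changes had a median of 0.21. The plot of fold changes by class shows the RAN cycle at the upper end, the nuclear basket below 0, and the import receptors and exportins on both sides of it.

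**Figure D1:**
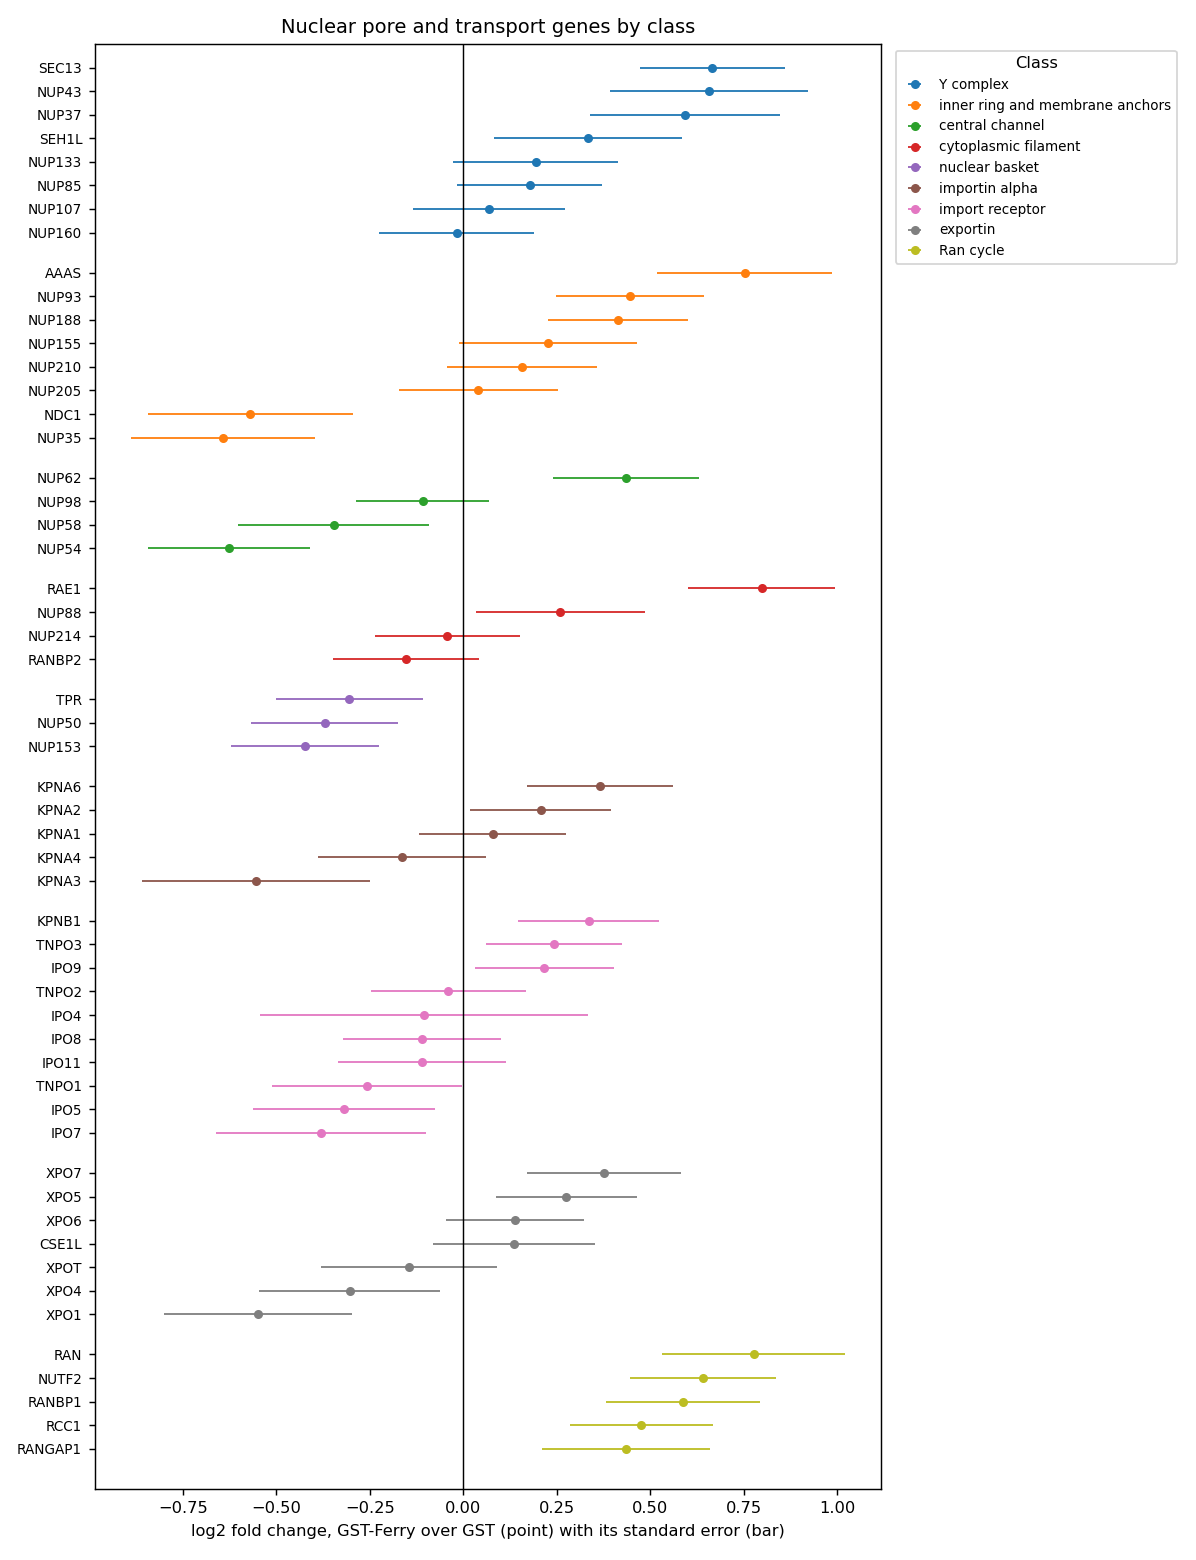
Log2 fold change of GST-Ferry over GST (horizontal axis; point, with its standard error as a bar) for each of the 54 genes, grouped by class. All 5 RAN cycle genes lie above 0 with a median of 0.59, and all 3 nuclear basket genes lie below 0 with a median of -0.37; no gene passed the test.

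In the main fit, the mRNAs of the RAN cycle were the class with the highest median, 0.59 on the log2 scale. In all 5 the 3 GST-Ferry libraries lay above the 3 GST libraries, as in 14.9% of all tested genes. The class had a median GC content of 51.1% and a median coding length of 837 bases, against 48.1% and 1470 for tested protein-coding genes. Over protein-coding genes, fold changes rose with GC content and fell with coding length, and their part here was not tested. RAN, the GTPase itself (chromosome 12, 130871879 to 130877678, plus strand, GRCh38 in GENCODE release 29), had 580.3, 1084 and 812 CPM in GST-Ferry 1, 2 and 3, against 414, 472 and 559.5 CPM in GST 1, 2 and 3. Every GST-Ferry library exceeded every GST library, but GST-Ferry 1 lay only just above GST 3. Its log2 fold change was 0.78 ± 0.24 (SE; adjusted p = 0.129 by edgeR's quasi-likelihood test), and 95.1% of all tested genes had a lower one. NUTF2, also called NTF2, which carries GDP-bound RAN back into the nucleus (chromosome 16, 67846732 to 67872567, plus strand), had 111, 151 and 133 CPM in GST-Ferry 1, 2 and 3, against 83.2, 78.8 and 91.0 CPM in GST 1, 2 and 3. Here the gap between the baits was wider than the spread among the GST libraries. RANBP1, a cofactor of GTP hydrolysis on RAN, had 226, 322 and 305 CPM in GST-Ferry 1, 2 and 3, against 204, 199 and 164 CPM in GST 1, 2 and 3. RCC1, the exchange factor on chromatin, had 126, 168 and 159.8 CPM in GST-Ferry 1, 2 and 3, against 111, 110.1 and 104 CPM in GST 1, 2 and 3. The GST libraries were tight for RCC1, and again GST-Ferry 1 was the lowest of the GST-Ferry libraries. RANGAP1, the GTPase-activating protein, had 262, 235 and 274 CPM in GST-Ferry 1, 2 and 3, against 231, 208 and 132 CPM in GST 1, 2 and 3. In RANGAP1 the difference was largest against GST 3, which was low, and small against GST 1, and the log2 fold change without GST 3 was 0.20.

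Log2 fold changes were 0.64 ± 0.19 for NUTF2, 0.59 ± 0.21 for RANBP1, 0.48 ± 0.19 for RCC1 and 0.43 ± 0.22 for RANGAP1, the lowest of the class (SE; adjusted p = 0.118, 0.159, 0.203 and 0.308 by edgeR's quasi-likelihood test). The 5 mRNAs together took 0.160% ± 0.0241 of counts with GST-Ferry and 0.108% ± 0.00971 with GST. As a class, the mean log2(CPM + 0.5) relative to the GST mean was 0.33, 0.75 and 0.65 in GST-Ferry 1, 2 and 3, against 0.05, 0.03 and -0.08 in GST 1, 2 and 3. All 5 stayed above 0 in every alternative fit, with class medians from 0.37 to 0.74. The class did not keep the highest median in every fit. The median of the Y complex was higher without GST 3 (0.485 against 0.468) and without GST 3 and GST-Ferry 1 together (0.65 against 0.64). It was also higher with offsets for GC content and length (0.48 against 0.37). Without GST 3, RAN (0.87, adjusted p = 0.0368) and NUTF2 (0.67, adjusted p = 0.0277) passed edgeR's quasi-likelihood test. RAN has 9 and NUTF2 has 7 annotated pseudogenes named after them, and RCC1 shares exons on the same strand with the snoRNA host gene SNHG3, so the counts of these 3 genes are uncertain to the extent that the authors' counting split or shared reads.

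**Figure D2:**
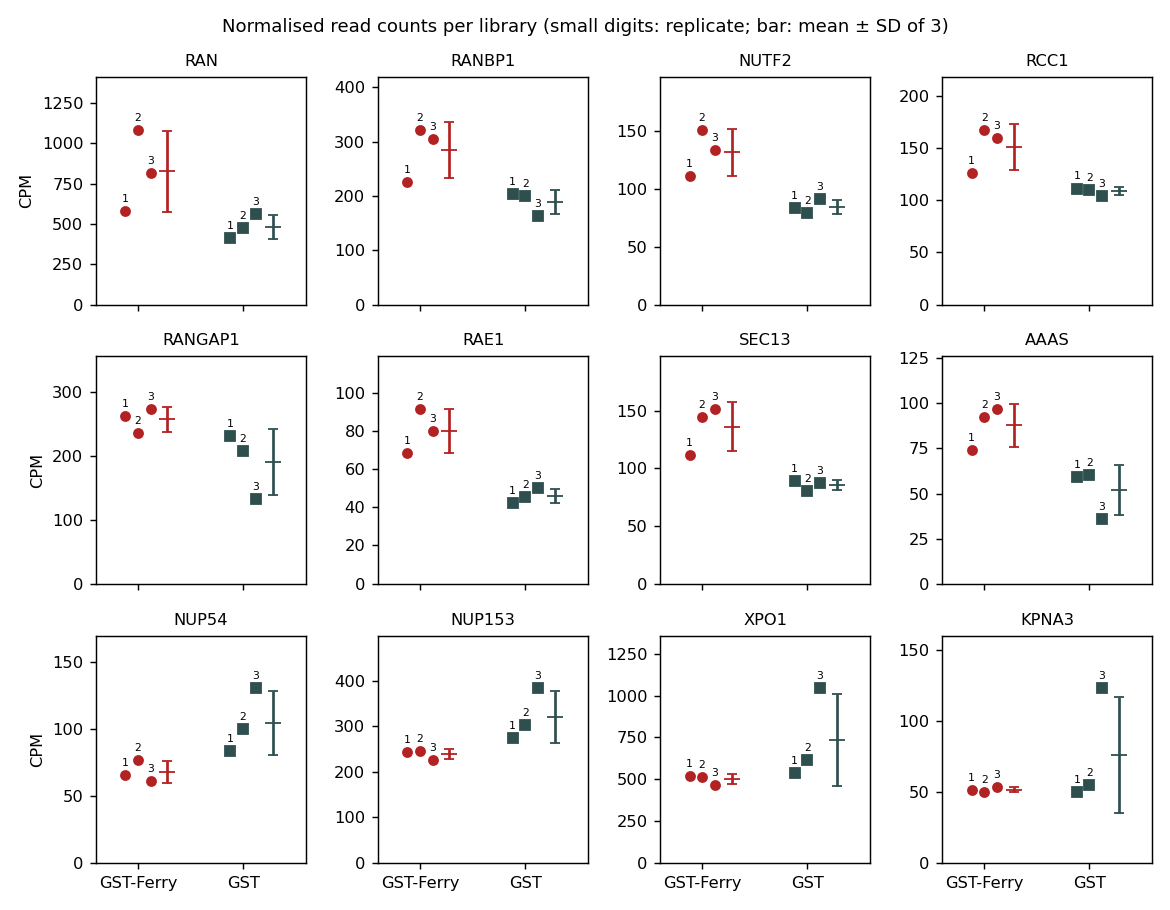
CPM in each library (vertical axes, from 0) for the 5 RAN cycle genes and 7 others, with GST-Ferry as circles and GST as squares; small digits give the replicate and the bar the mean ± SD of 3 libraries. GST-Ferry lies above GST without overlap in the RAN cycle genes, RAE1, SEC13 and AAAS; in XPO1 and KPNA3 the GST spread comes from GST 3, at 1045 and 123 CPM.

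In the Y complex, the outer scaffold of the pore, the small subunits had the higher values and the large ones lay nearer 0 in the main fit. SEC13, which also belongs to the COPII coat of transport vesicles (chromosome 3, 10293131 to 10321178, minus strand), had 112, 145 and 152 CPM in GST-Ferry 1, 2 and 3, against 88.5, 80.2 and 87.5 CPM in GST 1, 2 and 3. The groups did not overlap, and the GST libraries were close together. NUP43, the most abundant Y complex mRNA per kb of exon, had 192, 385 and 251 CPM in GST-Ferry 1, 2 and 3, against 143, 160.5 and 222 CPM in GST 1, 2 and 3. NUP37 had 54.8, 88.7 and 71.9 CPM in GST-Ferry 1, 2 and 3, against 34.9, 44.7 and 62.6 CPM in GST 1, 2 and 3. In both, GST 3 lay above GST-Ferry 1, so the groups overlapped. The log2 fold changes were 0.67 ± 0.19 for SEC13, 0.66 ± 0.26 for NUP43, 0.59 ± 0.25 for NUP37 and 0.33 ± 0.25 for SEH1L, a subunit shared with a regulator of mTORC1 (SE; adjusted p = 0.110, 0.205, 0.228 and 0.485 by edgeR's quasi-likelihood test). The larger subunits had 0.19 (NUP133), 0.18 (NUP85), 0.07 (NUP107) and -0.02 (NUP160), the last with 198 ± 21.0 CPM with GST-Ferry and 199.9 ± 43.0 CPM with GST (SD, n = 3 each). With GC content and length offsets the larger subunits lay at 0.35 (NUP133), 0.32 (NUP107), 0.18 (NUP160) and 0.08 (NUP85). The small ones lay at 0.86 (NUP37), 0.84 (NUP43), 0.63 (SEH1L) and 0.62 (SEC13) there. NUP107 turned to -0.12 without GST-Ferry 2 and to -0.04 without GST 1. Without GST 3 the log2 fold changes were 0.60 for SEH1L, 0.37 for NUP133, 0.08 for NUP85, 0.13 for NUP107 and 0.14 for NUP160.

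Of the 8 Y complex genes, 7 lay above 0 with a median of 0.26, and the class mean relative to GST was 0.06, 0.60 and 0.36 in GST-Ferry 1, 2 and 3, against -0.19, -0.06 and 0.26 in GST 1, 2 and 3. GST-Ferry 1 lay among the GST libraries and below GST 3. The class median was 0.11 without GST-Ferry 2 and 0.485 without GST 3, and NUP43 had a log2 fold change of 0.30 without GST-Ferry 2. Without GST 3, NUP43, NUP37 and SEC13 passed (log2 fold changes 0.84, 0.81 and 0.65; adjusted p = 0.0418, 0.0270 and 0.0324 by edgeR's quasi-likelihood test). SEC13 also passed in DESeq2 (adjusted p = 0.0484), and NUP37 passed with offsets for GC content and length (log2 fold change 0.86, adjusted p = 0.0475 by edgeR's quasi-likelihood test), where 1.14% of all tested genes were called higher. NUP43 overlaps an exon of PCMT1 on the opposite strand.

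In the inner ring and its membrane anchors the genes went in both directions. AAAS encodes ALADIN, which NDC1 holds at the pore and whose loss causes triple A syndrome (chromosome 12, 53307456 to 53324864, minus strand), and it had 74.3, 92.3 and 97.0 CPM in GST-Ferry 1, 2 and 3, against 59.1, 60.5 and 35.9 CPM in GST 1, 2 and 3. The groups did not overlap, and GST 3 was the lowest library. Its log2 fold change was 0.75 ± 0.23 (SE; adjusted p = 0.124 by edgeR's quasi-likelihood test), and 0.52 without GST 3. NUP93 and NUP188, which build the inner ring, were also without overlap, with 108 ± 18.4 CPM with GST-Ferry and 79.2 ± 2.61 CPM with GST for NUP93 and 308 ± 34.1 CPM with GST-Ferry and 231 ± 12.4 CPM with GST for NUP188 (SD, n = 3 each). Their log2 fold changes were 0.45 ± 0.20 and 0.41 ± 0.19 (SE; adjusted p = 0.238 and 0.249 by edgeR's quasi-likelihood test). NUP35, which binds membranes in the inner ring (chromosome 2, 183117513 to 183161680, plus strand), was the gene with the lowest log2 fold change of all 54, -0.64 ± 0.25 (SE; adjusted p = 0.189 by edgeR's quasi-likelihood test). It had 29.0, 34.1 and 25.6 CPM in GST-Ferry 1, 2 and 3, against 31.6, 50.9 and 56.1 CPM in GST 1, 2 and 3, with GST 1 inside the range of GST-Ferry. The transmembrane nucleoporin NDC1 had 135, 109.7 and 108 CPM in GST-Ferry 1, 2 and 3, against 137, 123 and 265 CPM in GST 1, 2 and 3 (log2 fold change -0.57 ± 0.27, SE). Its difference came largely from GST 3, and the log2 fold change was -0.17 without that library.

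NUP205, the most abundant gene of the class per kb of exon, had 619.8 ± 70.6 CPM with GST-Ferry and 603 ± 129 CPM with GST (SD, n = 3 each), and its log2 fold change of 0.04 changed sign in 5 of 15 alternative fits. NUP155 (0.23) and the transmembrane glycoprotein NUP210 (0.16) overlapped between the baits, and had 0.49 and 0.01 without GST 3. The class median was 0.19 with 6 of 8 genes above 0, and the class mean relative to GST was 0.03, 0.20 and 0.14 in GST-Ferry 1, 2 and 3, against -0.10, -0.02 and 0.12 in GST 1, 2 and 3, so that the groups overlapped.

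The FG nucleoporins of the central channel split. NUP62, whose FG repeats form part of the barrier, had 130.5, 143 and 146 CPM in GST-Ferry 1, 2 and 3, against 115, 111 and 84.5 CPM in GST 1, 2 and 3 (log2 fold change 0.44 ± 0.19, SE, and 0.28 without GST 3). NUP54 (chromosome 4, 76114659 to 76148515, minus strand), which assembles with NUP62 and NUP58 into 1 complex, had 65.4, 76.8 and 61.0 CPM in GST-Ferry 1, 2 and 3, against 83.5, 99.9 and 131 CPM in GST 1, 2 and 3 (log2 fold change -0.63 ± 0.22, SE). The groups did not overlap in either gene, with NUP62 above and NUP54 below GST, and neither passed (adjusted p = 0.242 and 0.154 by edgeR's quasi-likelihood test). The third partner, NUP58, had 105, 119.6 and 111 CPM in GST-Ferry 1, 2 and 3, against 103, 116 and 209 CPM in GST 1, 2 and 3. GST 3 alone stood out for NUP58, and the log2 fold change of -0.35 was 0.01 without it. NUP98, the most abundant of the class per kb of exon, is made as a precursor that also yields NUP96 of the Y complex, so its mRNA serves the Y complex too. It had 210, 208 and 197 CPM in GST-Ferry 1, 2 and 3, against 217, 222 and 225 CPM in GST 1, 2 and 3, a small difference without overlap (log2 fold change -0.11 ± 0.18, SE). The members of the NUP62 complex did not share a direction, and the difference between them was not tested. Their GC content also differed, with 58.4% for NUP62, 39.8% for NUP54 and 36.4% for NUP58. With offsets for GC content and length the log2 fold changes were 0.175 for NUP62, -0.40 for NUP54 and 0.088 for NUP58. NUP62 overlaps exons of IL4I1 on its own strand and of ATF5 on the other.

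On the cytoplasmic face, RAE1 had the highest log2 fold change and the smallest adjusted p of all 54 genes. RAE1 binds NUP98 and takes part in mRNA export (chromosome 20, 57351010 to 57379211, plus strand), and it had 68.3, 91.5 and 79.7 CPM in GST-Ferry 1, 2 and 3, against 42.4, 45.2 and 49.9 CPM in GST 1, 2 and 3. The lowest GST-Ferry library lay well above the highest GST library, and the GST libraries were close together. The log2 fold change was 0.80 ± 0.20 (SE; adjusted p = 0.0755 by edgeR's quasi-likelihood test), and 95.5% of all tested genes had a lower one. RAE1 passed in DESeq2 (adjusted p = 0.0191), without GST 3 (adjusted p = 0.0131 by edgeR's quasi-likelihood test) and with offsets for GC content and length (log2 fold change 0.80, adjusted p = 0.0410 by edgeR's quasi-likelihood test). RANBP2, the large filament protein also called NUP358 and the most abundant of the class per kb of exon, had 365 ± 19.0 CPM with GST-Ferry and 406 ± 63.5 CPM with GST (SD, n = 3 each; log2 fold change -0.15 ± 0.20, SE). Its counts are uncertain because 7 RGPD genes in the table carry near-identical copies of its sequence. NUP214 and its partner NUP88 had log2 fold changes of -0.04 and 0.26, which were -0.19 and 0.27 without GST 3 and -0.05 and -0.02 without GST-Ferry 2.

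The 3 mRNAs of the nuclear basket all had log2 fold changes below 0, without passing the test. NUP153 anchors the basket to the pore and had 244, 245 and 226 CPM in GST-Ferry 1, 2 and 3, against 274, 303 and 384 CPM in GST 1, 2 and 3. NUP50, a mobile nucleoporin that helps release cargo from importin alpha, had 99.0, 93.5 and 87.5 CPM in GST-Ferry 1, 2 and 3, against 104, 116 and 143 CPM in GST 1, 2 and 3. In both genes every GST-Ferry library lay below every GST library, as in 12.2% of all tested genes. TPR, which forms the basket filaments, had 381, 398 and 381 CPM in GST-Ferry 1, 2 and 3, against 539.7, 500.2 and 391 CPM in GST 1, 2 and 3. For TPR the order of the GST libraries was different, with GST 3 the lowest, and GST 3 lay within the range of GST-Ferry. Log2 fold changes were -0.42 ± 0.20 for NUP153, -0.37 ± 0.20 for NUP50 and -0.30 ± 0.20 for TPR (SE; adjusted p = 0.262, 0.316 and 0.414 by edgeR's quasi-likelihood test). The mean of the 3 relative to GST was -0.32, -0.33 and -0.42 in GST-Ferry 1, 2 and 3, against -0.08, -0.01 and 0.09 in GST 1, 2 and 3, which is without overlap and even across the GST-Ferry libraries. Together they took 0.0703% ± 0.00545 of counts with GST-Ferry and 0.0942% ± 0.00839 with GST. All 3 stayed below 0 in each of the 15 alternative fits, with medians from -0.49 to -0.18, the value nearest 0 with offsets for GC content and length. With these offsets TPR lay at -0.05. The class had a median GC content of 43.1% and a median coding length of 4521 bases, against 48.1% and 1470 for tested protein-coding genes. The part of these features here was not tested.

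**Figure D3:**
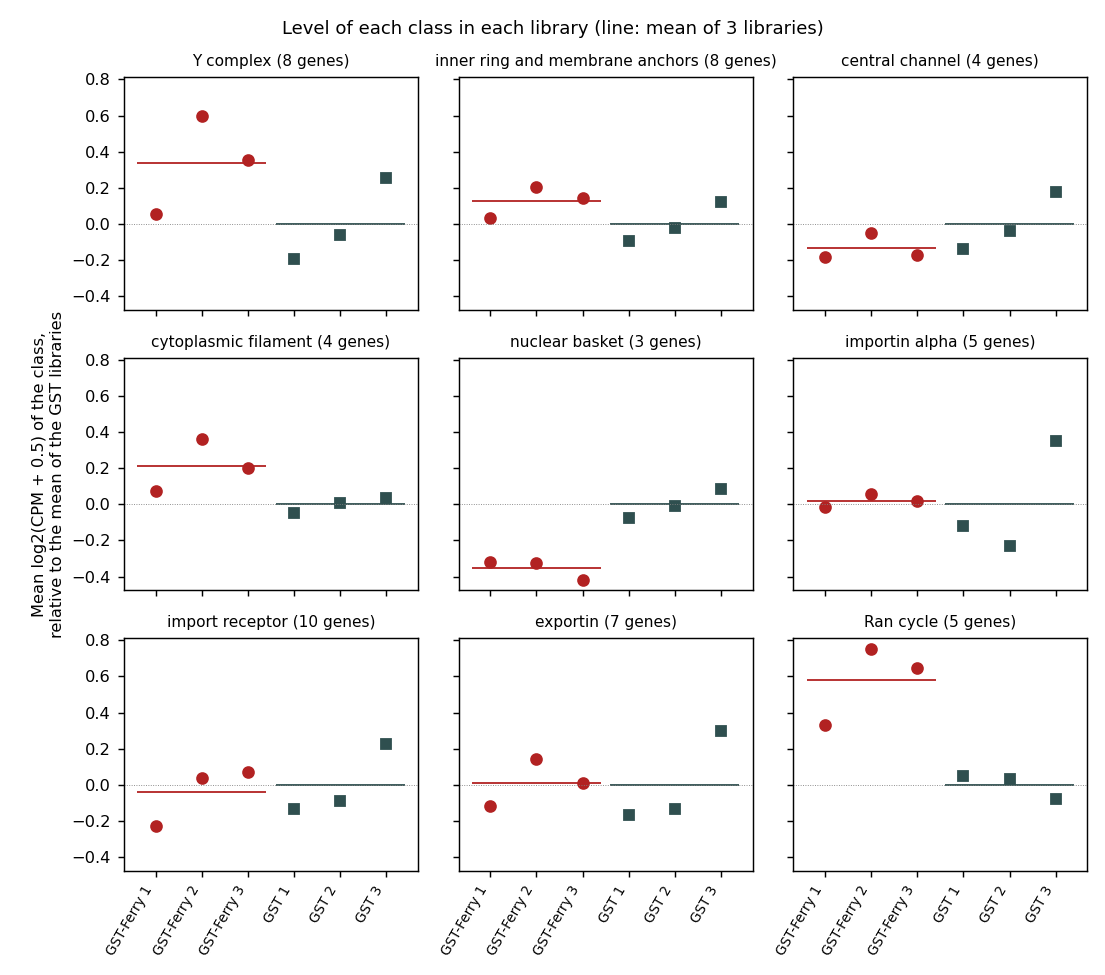
Mean log2(CPM + 0.5) of each class in each library, relative to the mean of the GST libraries (vertical axis), with GST-Ferry as circles, GST as squares and a line at the mean of 3 libraries. The groups do not overlap in the RAN cycle (0.33 to 0.75 with GST-Ferry) and the nuclear basket (-0.42 to -0.32), nor in the cytoplasmic filament class, where GST-Ferry 1 (0.07) and GST 3 (0.04) were close; GST 3 is the highest GST library in every class but the RAN cycle.

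The importin alpha adaptors, which recognise classical nuclear localisation signals, overlapped between the baits in all 5 genes. KPNA2, the most abundant of them per kb of exon, had 317, 297 and 272 CPM in GST-Ferry 1, 2 and 3, against 279, 225 and 264 CPM in GST 1, 2 and 3 (log2 fold change 0.21 ± 0.19, SE). KPNA6 had the highest log2 fold change, 0.37 ± 0.20, and KPNA3 the lowest, -0.55 ± 0.31 (SE; adjusted p = 0.323 and 0.340 by edgeR's quasi-likelihood test). KPNA3 had 51.1, 49.9 and 53.7 CPM in GST-Ferry 1, 2 and 3, against 49.6, 55.0 and 123 CPM in GST 1, 2 and 3. Only GST 3 was out of line for KPNA3, at 2.35 times the mean of GST 1 and GST 2, and the log2 fold change without GST 3 was -0.05. KPNA1 (0.08) and KPNA4 (-0.16) were the other two, at 0.17 and 0.08 without GST 3.

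Among the 10 import receptors of the importin beta family, 3 had log2 fold changes above 0 and 7 below, with a median of -0.11. Without GST 3 the tally was 7 above and 3 below with a median of 0.04, and without GST-Ferry 1 it was 6 above and 4 below with a median of 0.03. KPNB1, importin beta 1 and the partner of the importin alphas, was the most abundant per kb of exon and had 666, 741 and 759 CPM in GST-Ferry 1, 2 and 3, against 594, 548 and 575 CPM in GST 1, 2 and 3. Its groups did not overlap, and its log2 fold change of 0.33 ± 0.19 (SE) was the highest of the class (adjusted p = 0.348 by edgeR's quasi-likelihood test). TNPO3, which imports SR splicing factors, was also without overlap (134 ± 7.23 CPM with GST-Ferry and 113 ± 8.27 CPM with GST; SD, n = 3 each; log2 fold change 0.24 ± 0.18, SE), and IPO9, an importer of histones, had 0.22. IPO7, which carries ribosomal proteins among its cargo, had 380, 495 and 429 CPM in GST-Ferry 1, 2 and 3, against 392, 441 and 864 CPM in GST 1, 2 and 3 (log2 fold change -0.38 ± 0.28, SE). IPO5, another importer of ribosomal proteins, had 297, 377 and 358 CPM in GST-Ferry 1, 2 and 3, against 329.6, 360.5 and 597 CPM in GST 1, 2 and 3. TNPO1, the receptor of hnRNP A1, had 258, 299 and 246 CPM in GST-Ferry 1, 2 and 3, against 252, 243 and 467 CPM in GST 1, 2 and 3. In all 3 the GST 3 library was far above the other GST libraries, and without it the log2 fold changes were 0.03 for IPO7, -0.03 for IPO5 and 0.09 for TNPO1, against -0.38, -0.32 and -0.26 with all libraries. IPO8 (-0.11), IPO11 (-0.11) and TNPO2 (-0.04) lay near 0 and changed sign in 4, 3 and 2 of the alternative fits. IPO4 was the least abundant gene of the 54, with 19, 7 and 19 counts in GST-Ferry 1, 2 and 3 and 44, 54 and 32 counts in GST 1, 2 and 3, so that its log2 fold change of -0.11 ± 0.44 (SE) carries the widest error. IPO11 shares exons on its own strand with KIF2A, and IPO4 overlaps REC8 on the other.

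The exportins also split, 4 above 0 and 3 below with a median of 0.14 (-0.04 without GST-Ferry 2), and XPO1 had the lowest value. XPO1, or CRM1, exports proteins with leucine-rich signals as well as some RNAs (chromosome 2, 61477849 to 61538626, minus strand), and it had 520, 515 and 466 CPM in GST-Ferry 1, 2 and 3, against 536, 616 and 1045 CPM in GST 1, 2 and 3. The groups did not overlap, but GST 1 lay only just above GST-Ferry 1, and GST 3 was far above the rest. The log2 fold change was -0.55 ± 0.25 (SE; adjusted p = 0.252 by edgeR's quasi-likelihood test) and -0.23 without GST 3. XPO7 had the highest value of the class, 0.38 ± 0.21 (SE; adjusted p = 0.335 by edgeR's quasi-likelihood test), with 162, 239 and 214 CPM in GST-Ferry 1, 2 and 3, against 144, 150.4 and 178 CPM in GST 1, 2 and 3. XPO5, the exporter of pre-miRNAs, was without overlap, with 301 ± 38.1 CPM with GST-Ferry and 248 ± 11.5 CPM with GST (SD, n = 3 each; log2 fold change 0.27 ± 0.19, SE). CSE1L, which returns importin alpha to the cytoplasm, was the most abundant of all 54 per kb of exon and had 495, 639 and 496 CPM in GST-Ferry 1, 2 and 3, against 452, 421 and 611 CPM in GST 1, 2 and 3 (log2 fold change 0.14 ± 0.22, SE). XPOT, the exporter of tRNAs, had a log2 fold change of -0.15, XPO4 had -0.30 and XPO6, which exports actin, had 0.14. GST 3 was the highest library for XPOT and XPO4, at 1.73 and 1.78 times the mean of GST 1 and GST 2, and without GST 3 the log2 fold changes were 0.14 for XPOT, -0.0028 for XPO4 and 0.04 for XPO6.

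Per kb of exon, the 54 mRNAs differed widely in level. CSE1L had 143 with GST-Ferry and 130.2 with GST (CPM per kb), RAN 171 with GST-Ferry and 99.8 with GST, KPNA2 94.0 with GST-Ferry and 81.5 with GST and KPNB1 94.0 with GST-Ferry and 74.5 with GST. The spread over libraries of CSE1L (130.2 to 168 CPM per kb with GST-Ferry, 111 to 161 with GST) and of RAN (120.3 to 225 with GST-Ferry, 85.8 to 116 with GST) overlapped, so their order is not settled. The most abundant nucleoporin mRNA was NUP205, with 81.3 with GST-Ferry and 79.1 with GST CPM per kb, and NUP155 had 62.0 with GST-Ferry and 53.1 with GST. At the low end, SEH1L had 7.67 with GST-Ferry and 6.07 with GST and IPO4 0.916 with GST-Ferry and 0.922 with GST CPM per kb. Replicates varied with a median coefficient of variation of 12.4% with GST-Ferry and 16.4% with GST over the 54 genes. Over all tested genes it was likewise higher with GST, at 16.2% and 22.8%. Of the 54, 36 varied more with GST, and the matching share of all tested genes was not computed.

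The number of these genes that passed depended on library GST 3. It was the highest of the 6 libraries for 21 of the 54 genes (38.9%, against 29.7% of all tested genes) and the lowest for 13 (24.1%, against 30.8%). In 23 of the 54 genes GST 3 was at least 1.3 times the mean of GST 1 and GST 2. The matching share of all tested genes was not computed. GST-Ferry 2 was the highest library for 20 of the 54 (37.0%, against 17.1% of all tested genes) and the lowest for 0. The ratio of GST 3 to the mean of GST 1 and GST 2 was highest in KPNA3 (2.35), IPO7 (2.07), NDC1 (2.04), NUP58 (1.91), TNPO1 (1.89) and XPO1 (1.81), and lowest in AAAS (0.601) and RANGAP1 (0.602). The mRNAs of the first 6 have a GC content of 36.4% to 40.7%, and those of AAAS and RANGAP1 of 53.7% and 56.8%. Without GST 3, 6 of the 54 passed as higher (RAE1, NUP37, NUTF2, SEC13, RAN and NUP43) and 0 as lower, against 4.45% of all tested genes called higher in that fit. In the mean level of the 54 relative to GST, GST-Ferry 1 was the lowest of its group (-0.04) and GST 3 the highest (0.18). Leaving out both therefore widens the difference between the baits for these genes. Without GST 3 and GST-Ferry 1 together, 16 of the 54 passed as higher and 0 as lower, against 11.5% called higher. Those 16 were the 6 above with NUP133, SEH1L, NUP93, NUP155, NUP188, AAAS, KPNA6, XPO7, RANBP1 and RCC1, and RAN had the smallest adjusted p (0.000475 by edgeR's quasi-likelihood test). With no filter on low counts RAN alone passed, with edgeR's quasi-likelihood test giving it an adjusted p of 0.0495, where 1.29% of all tested genes were called higher. None of the 54 passed without any 1 of the other 5 libraries.

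**Figure D4:**
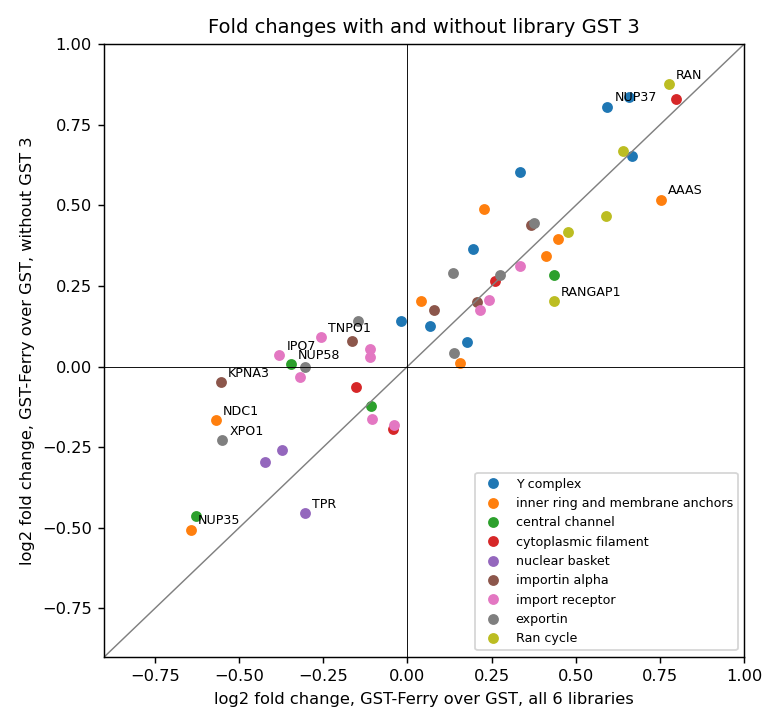
Log2 fold change of GST-Ferry over GST in the fit without GST 3 (vertical axis) against the fit with all 6 libraries (horizontal axis) for the 54 genes, with the line of equality. Without GST 3 values nearer 0 are seen for KPNA3 (-0.55 with it, -0.05 without) and NDC1 (-0.57 and -0.17), while TPR lies farther from 0 (-0.30 and -0.46).

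The fold changes followed the GC content of the mRNAs, among the 54 genes as among all protein-coding ones. Across the 54, the log2 fold change and the GC content of the longest annotated transcript had a Pearson r of 0.50 and a Spearman rho of 0.58, and across 12859 tested protein-coding genes 0.56 and 0.59; these are descriptions across genes, which share the same 6 libraries. Of 23 genes with a GC content under 42%, 7 lay above 0 (median -0.16), where protein-coding genes of that range had 17.4% above 0 (median -0.30). Of 18 between 42% and 50%, 14 lay above 0 (median 0.25), where protein-coding genes had 43.1% above 0 (median -0.06). Of 13 at 50% or more, 10 lay above 0 (median 0.41), where protein-coding genes had 77.7% above 0 (median 0.29). RAN (GC content 43.1%), NUP43 (41.8%) and NUP37 (38.6%) lay above the middle 50% of protein-coding genes of like GC content, as the plot against GC content shows. Fold changes also leaned to short coding regions: 22 genes with a coding length under 2000 bases had a median of 0.40, 22 genes up to 4000 bases a median of 0.01, and 10 longer ones a median of -0.03. The Pearson r with log10 coding length was -0.38 across the 54 and -0.18 across all protein-coding genes.

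With offsets for GC content and exonic length, chosen after seeing the data, 39 of the 54 lay above 0 (median 0.18, against 0.01 for all tested genes), and RAE1 and NUP37 passed. In that fit the RAN cycle had a median of 0.37 and all 5 genes above 0, the Y complex had 0.48 with all 8 above 0, and the import receptors had 0.14 with 7 of 10 above 0. The nuclear basket had -0.18 with all 3 below 0, TPR at -0.05. RAN had a log2 fold change of 0.92 there, SEC13 0.62, AAAS 0.59, NUP54 -0.40, NUP35 -0.38 and XPO1 -0.16.

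**Figure D5:**
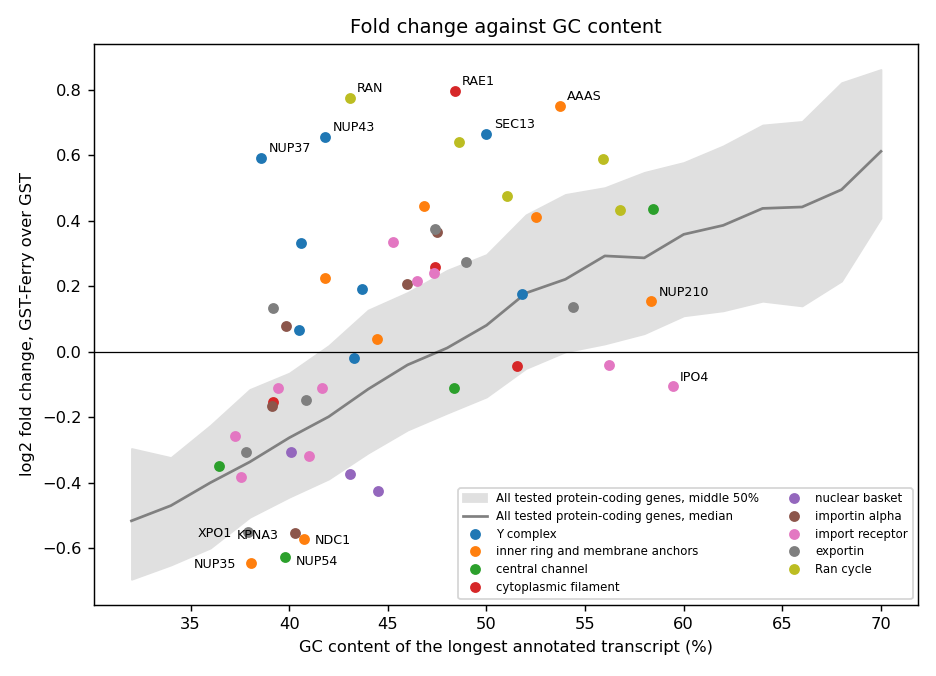
Log2 fold change of GST-Ferry over GST (vertical axis) against the GC content of the longest annotated transcript in percent (horizontal axis) for the 54 genes, coloured by class, over the median (line) and middle 50% (band) of all tested protein-coding genes in windows of GC content with at least 20 genes. Both rise with GC content; RAN (0.78 at 43.1%), NUP43, NUP37 and RAE1 are among the genes above the band, and the nuclear basket genes NUP153 and NUP50 among those below it.

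Of 31 other genes of nuclear transport and mRNA export, 29 were tested, and 1 passed the test, against 0.624% of all tested genes. RANBP17, an importin beta family receptor related to XPO7, fell with GST-Ferry and had 66.3, 65.0 and 62.4 CPM in GST-Ferry 1, 2 and 3, against 104, 134 and 147 CPM in GST 1, 2 and 3. Its log2 fold change was -0.99 ± 0.20 (SE; adjusted p = 0.0477 by edgeR's quasi-likelihood test), against 0.38 ± 0.21 for XPO7. The call lay at the threshold and was lost in 7 of 15 alternative fits, among them the fits without GST-Ferry 1, GST-Ferry 2, GST-Ferry 3 or GST 2 (adjusted p = 0.0805, 0.425, 0.411 and 0.116 by edgeR's quasi-likelihood test), while its sign held in all. Of the 29, 16 lay above 0 (55.2%, against 47.8% of all tested genes and 52% of protein-coding ones), with a median of 0.02. Groups without overlap were seen in 31.0%, near the 27.1% of all tested genes. The mRNA export genes ALYREF and GLE1, named after their values were seen, were nearest to passing on the upper side: ALYREF had 147 ± 23.3 CPM with GST-Ferry and 80.2 ± 15.3 CPM with GST and GLE1 112 ± 21.0 CPM with GST-Ferry and 61.8 ± 0.741 CPM with GST (SD, n = 3 each), with log2 fold changes of 0.87 ± 0.21 and 0.86 ± 0.20 (SE; adjusted p = 0.0751 and 0.0651 by edgeR's quasi-likelihood test). GLE1 activates the helicase DDX19 at the cytoplasmic face of the pore, and ALYREF is an adaptor that loads mRNA for export.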

How the data were processed

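RNA bound to GST-Ferry or GST was sequenced after rRNA depletion and strand-specific library preparation, per the labels' protocols. The authors deposited 1 table of raw read counts per Ensembl gene, used here unchanged; bcl2fastq 2.19.1, STAR 2.5.2b and GRCh38.p13 are named in the submitters' processing notes, and the counting program and its strand setting are not given in the sources used here. Columns named control and sample with a number were taken as the GST and GST-Ferry library of that number, from these words alone. Symbols were known for 58575 of 60676 IDs, and coordinates, GC content and lengths come from GENCODE release 29.

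Genes were filtered with filterByExpr (minimum count 10, minimum total 15), scaled with TMM factors and tested with edgeR 4.0.16 in R 4.3.3 (quasi-likelihood test, two-sided, Benjamini-Hochberg over 15546 genes, adjusted p under 0.05), with limma 3.58.1 and DESeq2 1.42.0 among the alternatives; the code was tested on simulated data. Standard errors are of the log2 fold change, and levels by class use log2(CPM + 0.5).

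The members, classes and other lists were chosen with earlier results of these data known. By rule, the called genes of each class, its highest and lowest log2 fold change and its most abundant gene per kb of exon were named; the other members are named to account for them. No pair of libraries differed by less than sampling noise (chi-square per degree of freedom 4.43 to 50.3). Correlations of same-numbered deviations were 0.244, 0.080 and -0.148. With 3 libraries per bait they cannot settle whether the replicate numbers pair the libraries, and the main fit used no pairing.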

Additional observations from a re-analysis of the deposited data

How the results depend on the processing

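Of the 54 genes, 33 kept the sign of their log2 fold change in 15 alternative fits and 21 did not, and none was called lower in any fit. The number called higher among them was 0 with RLE size factors, library sizes alone, limma-voom, thinning to equal depth or an adjusted p under 0.01, but 1 with no filter on low counts, 3 with DESeq2, 2 with the GC content and length offsets, 16 without GST 3 and GST-Ferry 1 together, and 0 to 6 with any 1 library left out (6 without GST 3). Their median was -0.01 to 0.18 with 1 library left out (-0.01 without GST-Ferry 2) and 0.07 to 0.24 in the other alternatives. Counts over all genes, 92 higher and 5 lower, became 11 and 0 (RLE), 7 and 0 (library sizes alone), 421 and 323 (no filter), 505 and 178 (DESeq2), 14 and 0 (limma-voom), 84 and 8 (thinned), 1754 and 992 (without GST 3 and GST-Ferry 1), 0 and 0 (adjusted p under 0.01), and 178 and 24 (offsets); they ran from 0 to 701 higher and from 0 to 558 lower with 1 library left out, the highest without GST 3. The median of all tested genes, -0.03, was -0.05 with RLE, -0.09 with library sizes alone and -0.18 with no filter. The cause was not tested for any of these.

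With the replicate number as a block, 0 of the 54 were called and their median was 0.14, while the counts over all genes were 167 higher and 28 lower. Deviations of GST-Ferry 1 correlated best with GST 1 (0.244), but those of GST-Ferry 2 with GST 3 (0.127) and those of GST-Ferry 3 with GST 2 (0.201). With 3 libraries per bait these values cannot settle whether the numbers pair the libraries.

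Genes near 0 changed sign. NUP205 was -0.014 with library sizes alone and -0.016 with no filter. Without GST 3 and GST-Ferry 1, values were above 0 for NUP160 (0.24), NUP58 (0.080), KPNA4 (0.097), IPO4 (0.24), IPO5 (0.091), IPO7 (0.15), IPO8 (0.18), IPO11 (0.17), TNPO1 (0.14), XPO4 (0.083) and XPOT (0.23). With the offsets, values were 0.18 for NUP160, -0.084 for NUP210, 0.088 for NUP58, 0.17 for RANBP2, 0.16 for KPNA4, 0.0075 for IPO7, 0.11 for IPO8, 0.17 for IPO11, 0.17 for TNPO1, 0.081 for XPO4, -0.012 for XPO6 and 0.12 for XPOT. With 1 library left out, the ranges were -0.12 to 0.18 for NUP107, -0.15 to 0.14 for NUP160, -0.084 to 0.20 for NUP205, -0.55 to 0.0072 for NUP58, -0.020 to 0.44 for NUP88, -0.19 to 0.041 for NUP214, -0.070 to 0.17 for KPNA1, -0.34 to 0.078 for KPNA4, -0.77 to 0.24 for IPO4, -0.60 to 0.035 for IPO7, -0.27 to 0.028 for IPO8, -0.33 to 0.053 for IPO11, -0.44 to 0.090 for TNPO1, -0.19 to 0.084 for TNPO2, -0.30 to 0.14 for XPOT and -0.039 to 0.29 for CSE1L.

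Depth limits IPO4, with 7 counts in GST-Ferry 2. The standard errors of the 54 had a median of 0.21. Reads of overlapping genes, RANBP2 and RGPD copies, and pseudogenes (12 of the 54 genes have 1 or more named after them) cannot be separated in gene counts.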
